A study of Mus musculus with 2 samples.

Results

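The subject of this report is a set of 35 mouse genes for fatty acid oxidation and ketone synthesis, named by symbol, of the 32286 features in each of 2 droplet single-cell RNA libraries of liver. By compartment, 19 encode mitochondrial proteins, 9 encode peroxisomal ones and 7 act in both, elsewhere or as hormones. Hepatocytes were collected by perfusion from mice of strain C57BL/6J;129S6/SvEvTac. The DDC library pooled WT mice on a normal diet (0 day) with Sox9-EGFP mice fed DDC for 2 weeks. DDC is a diet that injures bile ducts, and the reporter was used to trace Sox9-positive progenitor-like cells of hepatocyte origin. The DDC and cMet library pooled WT mice on a normal diet (0 day) with Sox9-CreERT2:Rosa26-mTmG mice after 5 months of DDC with cMet, a growth factor receptor gene given by HTVi in the label's wording, as a liver cancer model. Each time had 2 mice, the barcodes do not name the mouse or the time, and each library is therefore 1 sample that mixes untreated and treated animals. There is no replicate and no test, and library, genotype, treatment and time cannot be told apart.

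Fatty acids are activated to acyl-CoA by synthetases such as Acsl1. The carnitine shuttle (Cpt1a, Slc25a20, Cpt2) carries them into mitochondria, where acyl-CoA dehydrogenases, hydratases, 3-hydroxyacyl-CoA dehydrogenases and thiolases shorten them stepwise, electrons leave through the electron transfer flavoprotein (Etfa, Etfb, Etfdh), and the acetyl-CoA feeds the citrate cycle or ketone bodies. Peroxisomes run a parallel pathway with their own oxidases, bifunctional enzymes (Ehhadh, Hsd17b4) and thiolases (Acaa1a, Acaa1b) for very long, branched and dicarboxylic acids and for bile acid side chains. The nuclear receptor PPARα is the best known activator of both programmes in liver, and pericentral and periportal hepatocytes differ in lipid metabolism.

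Of 8694 and 18316 barcodes, 2903 (33.4%) of the DDC library and 8099 (44.2%) of the DDC and cMet library had at least 500 genes, at least 2000 UMIs (counted molecules) and at most 30% mitochondrially encoded UMIs. Levels below are summed UMIs of a gene per 10000 UMIs of a cell group, and brackets hold exact 95% intervals that cover counting error only, not differences between mice. Members were compared in Alb-high cells, with Alb at 50 or more and the sum of 32 non-parenchymal markers under 10 per 10000: 1721 cells (59.3% of kept barcodes, median 38812 UMIs) and 4476 cells (55.3%, median 26507 UMIs). This is a range of Alb and not a cell type, and 114 and 286 kept barcodes had Alb between 40 and 60. The median summed level of 8 hepatocyte markers in these cells was 625 and 831, that of 8 biliary and progenitor markers 5.26 and 0.574, and that of macrophage markers 0.788 and 1.52. Endothelial and stellate marker medians were 0. The libraries shared 50 barcodes, 4 of them among kept cells. Every member had at least 50 UMIs in every comparison, and a member is called higher or lower when its ratio passes 2-fold.

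In Alb-high cells the summed members were higher in the DDC and cMet library, by less than 2-fold in each compartment. Mitochondrial members summed to 29.7 in the DDC library and 35.6 in the DDC and cMet library, a log2 ratio of 0.26 [0.26, 0.27]. Peroxisomal members summed to 10.3 and 11.2, a log2 ratio of 0.12 [0.11, 0.13]. The 7 other members summed to 3.97 and 5.59, a log2 ratio of 0.49 [0.47, 0.52]. Each sum stood above the median of all 13303 genes compared, which was -0.29 on the log2 scale. The peroxisomal difference changed sign when only DDC cells without EGFP UMIs were used (-0.03), when cells of both libraries had Spp1 under 10 (-0.02), among pericentral-side cells (-0.03), and without Ehhadh and Acaa1b (-0.07). It was 0.23 among periportal-side and 0.24 among middle cells.

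Single members moved further, and in both directions. Over all Alb-high cells only Cpt1a, which encodes the carnitine transferase that gates entry into mitochondria, was over 2-fold higher in the DDC and cMet library, where 5.86% of all genes were higher. Its level was 0.763 in the DDC library and 1.74 in the other, a log2 ratio of 1.19 [1.14, 1.23], while its partners Cpt2 (0.38) and Slc25a20 (0.35) had smaller log2 ratios. Acsl1, the synthetase upstream of it, stood at 1.60 and 2.88 (log2 0.85 [0.82, 0.88]). Acaa2, a mitochondrial thiolase, stood at 3.59 and 6.37 (0.83 [0.81, 0.85]), and Acaa1b, a peroxisomal one, at 1.91 and 3.24 (0.76 [0.73, 0.79]). Acaa1b also passed 2-fold when only periportal-side (1.21) or middle cells (1.06) were compared, and Acsl1 in periportal-side cells (1.04).

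3 members were over 2-fold lower in the DDC and cMet library, where 12.5% of all genes were lower. Acot1, a cytosolic acyl-CoA thioesterase that releases free fatty acids, stood at 0.186 in the DDC library and 0.0710 in the other (log2 -1.39 [-1.52, -1.26]). Acot2, its mitochondrial neighbour, stood at 0.257 and 0.100 (-1.36 [-1.47, -1.25]). Fgf21, the fasting and stress hormone of the liver, stood at 0.217 and 0.0934 (-1.22 [-1.33, -1.10]). The Acot1 log2 ratio was -0.83 with DDC cells without EGFP UMIs, -0.86 with cells thinned to 2000 UMIs, -0.996 as a mean over cells and -0.44 in pericentral-side cells. In pericentral-side cells Acot2 (-0.95) and Fgf21 (-0.75) also fell short of 2-fold, as did Acot2 in middle cells (-0.98). Crot, which moves medium-chain acyl groups out of peroxisomes as carnitine esters, stood at 3.49 and 2.05 (-0.77 [-0.80, -0.75]). The plot of member levels by library shows these departures against a set that otherwise lies close together.

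**Figure D1:**
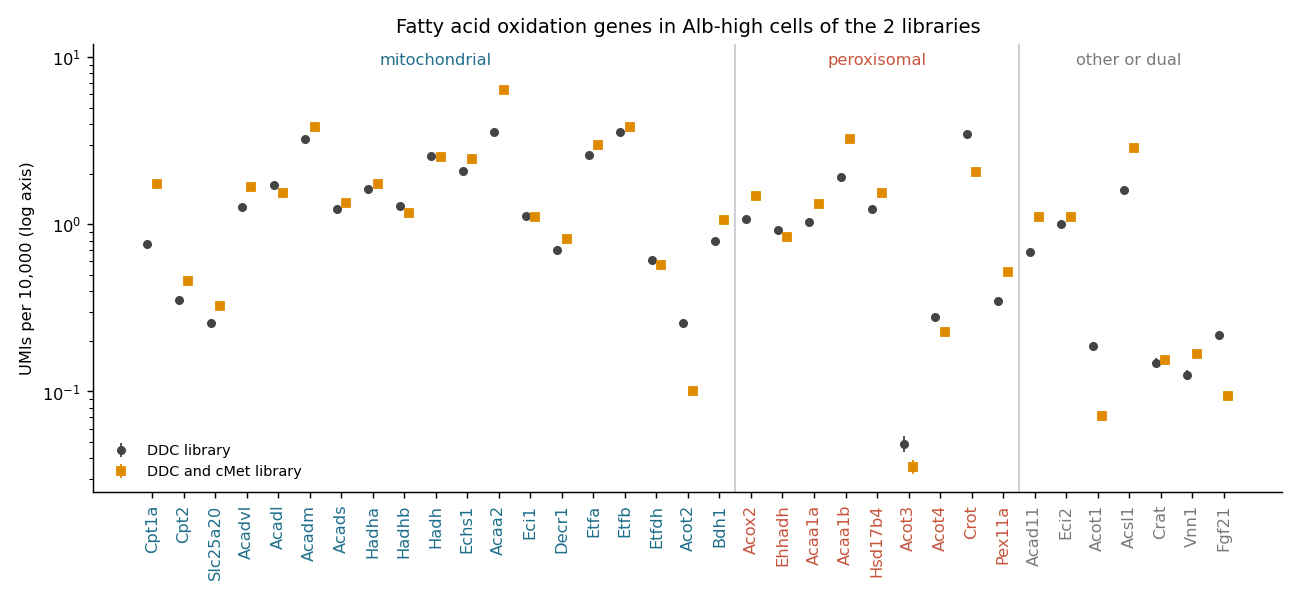
Level of each of the 35 members in Alb-high cells of the 2 libraries, as UMIs per 10000 on a log axis, with points for levels and bars for exact 95% counting intervals, most of them smaller than the symbol. Members are grouped by compartment; Cpt1a (0.763 and 1.74) is the one member over 2-fold higher in the DDC and cMet library, and Acot1, Acot2 and Fgf21 are the 3 over 2-fold lower.

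EGFP RNA reports Sox9 in the treated mice of the DDC library and set the compartments apart. Alb-high cells of at least 10000 UMIs were binned by EGFP per 10000 UMIs: 797 cells with none, 416 above 0 to under 1, 159 from 1 to under 3 and 102 at 3 or more. Cells without EGFP can be from untreated WT mice or from reporter-negative cells of treated mice, which cannot be told apart. Over these bins the mitochondrial sum was 29.0, 30.1, 30.2 and 30.6, and the peroxisomal sum was 11.5, 9.44, 9.32 and 8.23. The log2 ratio of EGFP 3 or more over EGFP 0 was 0.08 [0.05, 0.10] for the mitochondrial and -0.48 [-0.53, -0.43] for the peroxisomal sum, beside a median of 0.25 over 11173 genes. Within a cell, the median ratio of peroxisomal to mitochondrial member UMIs was 0.399, 0.310, 0.306 and 0.269 over the 4 bins. The mitochondrial sum was nearly level, and most of the step down in the peroxisomal sum lay in 2 members, Ehhadh and Acaa1b. Without these, singled out after their values were seen, the other 7 summed to 7.79 with no EGFP and 7.10 at EGFP 3 or more, a log2 ratio of -0.13 [-0.18, -0.08]. Among EGFP-positive cells alone (3 or more against above 0 to under 1), the peroxisomal log2 ratio was -0.20 and the mitochondrial one 0.03.

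Other values moved over the same bins. Spp1 went from 14.7 to 158 and Sox9 from 0.690 to 2.69. The biliary and progenitor marker median went from 2.67 to 157, the hepatocyte marker median from 644 to 372, mitochondrially encoded UMIs from 8.04% to 5.97% and the median UMIs per cell from 37048 to 53272. Their part in the member ratios was not tested. The macrophage marker median was 0.785 with no EGFP and 0.702 in the highest bin. In the same order the leukocyte median (Ptprc and Cd74) was 0.547 and 0.858, and the stellate one 0 and 0.166. The part of these markers' cells in the member ratios was not tested either.

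Within mitochondria no member passed 2-fold in either direction, where 10.3% of all genes were higher and 5.54% lower in EGFP-high cells. The dehydrogenases did not move as a block. Acadl, the long-chain acyl-CoA dehydrogenase, stood at 1.57, 1.72, 1.87 and 2.49 over the 4 bins (log2 of highest over none 0.66 [0.57, 0.75]), and Acads, which takes short chains, had a log2 ratio of 0.49. Acadm, which takes medium chains, had one of -0.45, with levels of 3.49, 3.14, 2.93 and 2.55. Acadvl, which takes very long chains, had one of -0.15. The later steps lay close to 0: Hadha 0.02 and Hadhb -0.03, the subunits of the trifunctional protein, Hadh 0.24, Echs1 -0.13, the isomerase gene Eci1 0.07 and Acaa2 0.01. The electron transfer genes Etfa (0.23), Etfb (0.03) and Etfdh (0.27) and the ketone body dehydrogenase gene Bdh1 (0.24) were at or slightly above 0. The auxiliary reductase gene Decr1 was further above it (0.45 [0.30, 0.60]). In the carnitine shuttle Cpt1a was at 0.03, Cpt2 at -0.37 and Slc25a20 at -0.29.

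Of the 9 peroxisomal members 8 had ratios below 0 in EGFP-high cells, where 32.1% of all genes did, and 2 were over 2-fold lower, where 5.54% of all genes were. Ehhadh, the bifunctional enzyme of the inducible peroxisomal pathway, stood at 1.22, 0.756, 0.550 and 0.278 over the 4 bins, the lowest log2 ratio of any member at -2.14 [-2.39, -1.90]. With each cell thinned to 10000 UMIs, 66.0%, 47.4%, 37.7% and 17.6% of cells held an Ehhadh UMI (unthinned 91.5% in cells without EGFP). Its level was lower in each bin than in the one before, and no counting intervals of the 4 overlapped. Acaa1b, a thiolase, stood at 2.47, 1.50, 1.45 and 0.849 (log2 -1.54 [-1.68, -1.40]), with the middle 2 bins within counting error of each other. The D-bifunctional enzyme gene Hsd17b4 (-0.33), the branched-chain oxidase gene Acox2 (-0.47), the peroxisome division gene Pex11a (-0.41), Acot4 (-0.36) and Crot (-0.16) were lower by less, and the interval of Acot3 (-0.58 [-1.39, 0.15]) included 0. Acaa1a was the one peroxisomal member above 0, at 0.918, 1.05, 1.17 and 1.38 (0.59 [0.47, 0.71]).

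The 7 other members held the highest ratio of the set, and the largest ones went both ways. Of the 7, 2 were over 2-fold higher, where 10.3% of all genes were, and 1 over 2-fold lower, where 5.54% were. Acsl1, the synthetase, stood at 2.03, 1.37, 0.996 and 0.749 over the EGFP bins (log2 -1.44 [-1.59, -1.29]). Acot1 stood at 0.125, 0.138, 0.227 and 0.680 (2.44 [2.23, 2.65]), and its thinned share of cells with a UMI at 8.41%, 10.8%, 15.7% and 41.2%. Eci2, an enoyl-CoA isomerase of peroxisomes and mitochondria, stood at 0.796, 0.974, 1.16 and 2.19 (1.46 [1.36, 1.56]). Most of the Acot1 and Eci2 difference thus lay in the highest bin. With EGFP 1 or more against 0, Eci2 (0.98) fell just short of 2-fold, Acot1 was at 1.71 and Ehhadh at -1.47. Within EGFP-positive cells (3 or more against above 0 to under 1), Ehhadh was at -1.44, Acsl1 at -0.87 and Acaa1b at -0.82. Vnn1, a pantetheinase that takes part in coenzyme A turnover, stood at 0.108, 0.122, 0.166 and 0.205 (0.93 [0.60, 1.24]). Fgf21 stood at 0.205, 0.272, 0.188 and 0.109 (-0.91 [-1.33, -0.52]), so it was highest in the bin with little EGFP. Acad11 (-0.55) was lower and Crat (-0.16 [-0.52, 0.19]) lay within counting error.

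**Figure D2:**
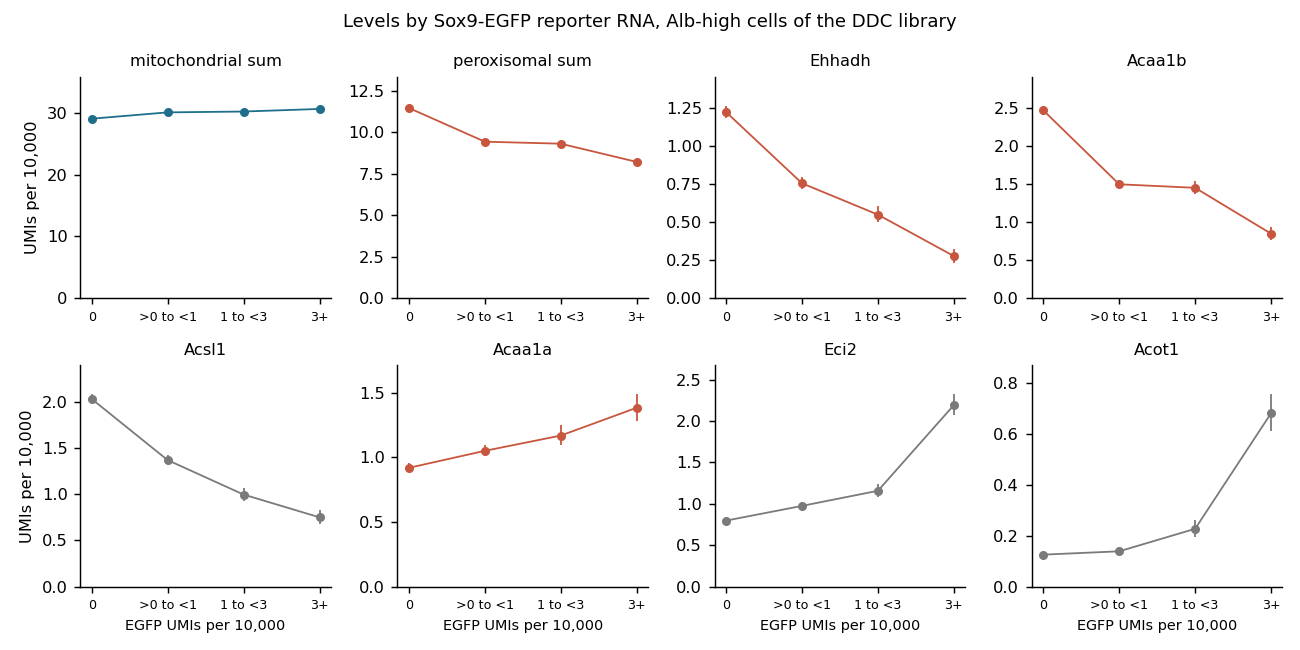
Levels, as UMIs per 10000, of the mitochondrial and peroxisomal sums and 6 members in Alb-high cells of the DDC library by EGFP bin (797, 416, 159 and 102 cells), with points for levels and bars for exact 95% counting intervals. The mitochondrial sum runs from 29.0 to 30.6 while the peroxisomal sum runs from 11.5 to 8.23, and Ehhadh, Acaa1b and Acsl1 step down where Acaa1a, Eci2 and Acot1 step up.

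The thiolase genes Acaa1a and Acaa1b lie on chromosome 9 and had ratios of opposite sign in EGFP-high over EGFP-zero cells. The share of Acaa1b in the UMIs of the pair was 72.9% [72.0, 73.7] in cells without EGFP, 58.8% [57.4, 60.1] above 0 to under 1, 55.4% [53.2, 57.6] from 1 to under 3 and 38.0% [35.2, 40.9] at 3 or more. In macrophage-marker cells it was 22.1% in the DDC library and 29.4% in the DDC and cMet library. The pair is uncertain as single genes: of windows of 90 bases in the last 500 bases of the annotated transcripts, 45.0% of those of Acaa1a also occur in Acaa1b and 23.1% of those of Acaa1b in Acaa1a, and reads there cannot be told apart. Their sum stood at 3.39, 2.55, 2.62 and 2.23 over the EGFP bins. Any reads left uncounted because they match both genes would be missing from this sum too. Since the shared part is larger for Acaa1a, the sum is not free of that uncertainty. The sequences just upstream of the 2 starts (RefSeq, GRCm38.p6, both written 5′ to 3′ along the gene's strand) are shown because the pair encodes thiolases of the same step and had opposite ratios. Capitals mark GGGCGG and CCAAT on either strand. The Acaa1a stretch, chr9:119341160-119341293 on the + strand, lies in introns of other annotated Acaa1a transcripts, and the Acaa1b stretch is chr9:119157094-119157227 on the - strand.
Acaa1a: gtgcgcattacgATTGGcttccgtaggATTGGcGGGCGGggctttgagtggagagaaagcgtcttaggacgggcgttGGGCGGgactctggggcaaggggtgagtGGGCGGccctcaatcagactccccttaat
Acaa1b: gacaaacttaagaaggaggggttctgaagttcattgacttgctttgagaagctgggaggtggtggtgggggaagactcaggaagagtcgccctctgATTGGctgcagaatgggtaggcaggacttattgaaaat
The 134 bases of Acaa1a hold GGGCGG 3 times and CCAAT 2 times, and those of Acaa1b hold GGGCGG 0 times and CCAAT 1 time. GGGCGG is in 32.7% and CCAAT in 33.8% of 32851 RefSeq promoters over the 250 bases before the start. A promoter was found for 30 members, of which 18 hold GGGCGG (10 of 17 mitochondrial and 3 of 8 peroxisomal) and 17 hold CCAAT (6 of 17 mitochondrial and 7 of 8 peroxisomal). A direct repeat of AGGTCA with 1 base between the copies, the kind PPAR and RXR bind, is on either strand of 0.0335% of all these promoters. With AGGNCA as the repeated unit the share is 0.338%, and 0 of the 30 members hold either form in these 250 bases. At shares this low, finding none among 30 promoters does not set the members apart. Sequence outside the 250 bases was not searched. A match is a description of letters and not a bound site.

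**Figure D3:**
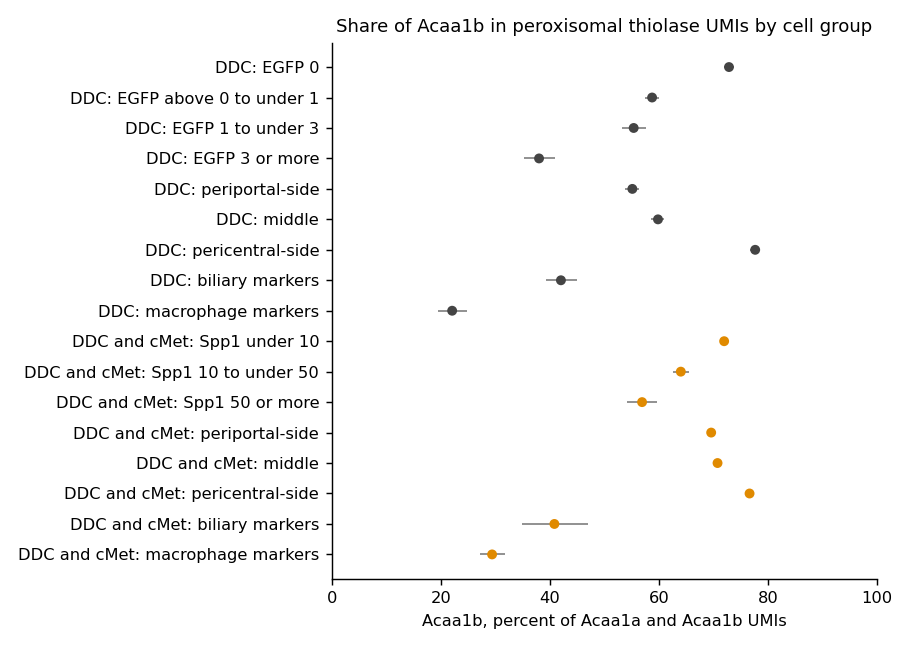
Percent of Acaa1b in the summed Acaa1a and Acaa1b UMIs of each cell group, with points for shares and bars for exact (Clopper-Pearson) 95% intervals, in grey for the DDC library and orange for the DDC and cMet library. The share runs from 72.9% with no EGFP to 38.0% at EGFP 3 or more, and reaches 77.7% in pericentral-side cells of the DDC library and 22.1% in its macrophage-marker cells.

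Hadha and Hadhb are a contrasting pair, since they encode the subunits of one mitochondrial enzyme and start back to back on chromosome 5. The annotated genes (GENCODE M21, GRCm38) are 85 bases apart. That stretch, chr5:30155163-30155247 on the + strand, holds GGGCGG 2 times and is shown with those in capitals because the pair kept close ratios over EGFP.
Hadha to Hadhb: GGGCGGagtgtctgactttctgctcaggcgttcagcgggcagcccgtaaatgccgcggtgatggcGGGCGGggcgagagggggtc
The ratio of Hadha to Hadhb UMIs was 1.25, 1.29, 1.17 and 1.29 over the EGFP bins, 1.25 in all Alb-high cells of the DDC library and 1.50 in those of the DDC and cMet library. Between libraries their log2 ratios had opposite signs, 0.11 [0.08, 0.14] for Hadha and -0.15 [-0.19, -0.11] for Hadhb.

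Acot2, Acot1, Acot4 and Acot3 lie in that order on the + strand of chromosome 12 (chr12:83987861-84060402) and encode thioesterases of mitochondria, cytosol and, for Acot4 and Acot3, peroxisomes. Every gene of the cluster had a log2 ratio below 0 in the DDC and cMet over the DDC library. Of all genes 70.6% did, with a median of -0.29. Acot4 (-0.31 [-0.40, -0.23]) and Acot3 (-0.47 [-0.68, -0.25]) lay nearer that median than Acot1 and Acot2. Over EGFP the cluster had ratios of both signs. In EGFP-high over EGFP-zero cells the log2 ratios were 0.46 [0.22, 0.69] for Acot2, 2.44 for Acot1, -0.36 [-0.65, -0.08] for Acot4 and -0.58 [-1.39, 0.15] for Acot3. Of windows of 50 bases in the last 500 bases of Acot1 transcripts 14.4% also occur in Acot2, and reads from those windows cannot be told apart. Macrophage-marker cells of the DDC library held Acot1 at 0.456 and those of the other library at 0.560. The part of macrophage RNA in the Acot1 values was not tested.

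Spp1, an osteopontin gene high in biliary and progenitor cells, is measured in both libraries and was used as a second split, chosen after seeing the data. In the DDC library 314 Alb-high cells with Spp1 at 50 or more per 10000 were set against 1114 with Spp1 under 10. The mitochondrial log2 ratio was -0.02 [-0.03, 0.00] and the peroxisomal one -0.51 [-0.54, -0.48]. In the DDC and cMet library the groups were 116 and 4021 cells, and the values -0.01 [-0.04, 0.01] and -0.30 [-0.35, -0.25]. Without Ehhadh and Acaa1b the peroxisomal values were -0.21 [-0.25, -0.18] and -0.10 [-0.17, -0.04]. The medians of all genes were 0.18 and 0.42 on the log2 scale.

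Ehhadh and Acsl1 were over 2-fold lower in Spp1-high cells of both libraries. Ehhadh stood at 1.21 with Spp1 under 10 and 0.320 at 50 or more in the DDC library (log2 -1.92 [-2.06, -1.79]), and in the DDC and cMet library at 0.872 and 0.335 (-1.38 [-1.67, -1.11], but -0.86 with cells thinned to 2000 UMIs). Acsl1 stood at 2.05 and 0.726 (-1.50) and at 3.02 and 1.20 (-1.34). Acaa1b passed 2-fold in the DDC library, at 2.41 and 0.949 (-1.35), and not in the other, at 3.30 and 2.20 (-0.58). Lower calls thus numbered 3 members in the DDC library, where 4.44% of all genes were lower, and 2 in the DDC and cMet library, where 5.08% were. The difference between libraries was not tested. Acot3 was the next lowest in the DDC library, at 0.0545 and 0.0301 (-0.86 [-1.35, -0.39]), and Acox2 in the other, at 1.50 and 0.935 (-0.68 [-0.85, -0.52]).

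Acot1 was over 2-fold higher in Spp1-high cells of both libraries. Its DDC levels were 0.112 with Spp1 under 10 and 0.388 at 50 or more (log2 1.79 [1.61, 1.98]), and its DDC and cMet levels 0.0477, 0.173 and 0.576 with Spp1 under 10, from 10 to under 50, and at 50 or more (3.59 [3.35, 3.84]). The macrophage marker median was 0.845 and 0.639 in the first and 1.53 and 1.18 in the second, lower in the Spp1-high cells each time. The median of the leukocyte markers Ptprc and Cd74 was higher in them, at 0.535 and 1.21 in the first and 0.253 and 0.431 in the second. The part of either in the Acot1 values was not tested. Eci2 stood at 0.787 and 1.60 (1.02, but 0.82 with Alb at 100 or more and 0.998 without mitochondrially encoded UMIs) and at 1.06 and 1.89 (0.83). Acot2 (1.91 [1.60, 2.21]), Fgf21 (1.41 [1.04, 1.76], and 2.33 with cells thinned to 2000 UMIs) and Vnn1 (1.26 [0.98, 1.53], but 0.24 with cells thinned to 2000 UMIs) also passed 2-fold in the DDC and cMet library. Acadl, short of 2-fold, stood at 1.53 and 2.24 (0.55 [0.49, 0.61]) in the DDC library. The higher calls were 2 members in the DDC library, where 8.22% of all genes were higher, and 4 in the DDC and cMet library, where 19.1% were. Fgf21 had log2 ratios of 0.55 in Spp1-high and -0.91 in EGFP-high cells of the DDC library, so the 2 splits did not rank its cells alike. The biliary and progenitor marker list includes Spp1 itself, and the hepatocyte marker median of cells with Spp1 under 10 and 50 or more was 666 and 433 (DDC) and 845 and 458 (DDC and cMet).

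**Figure D4:**
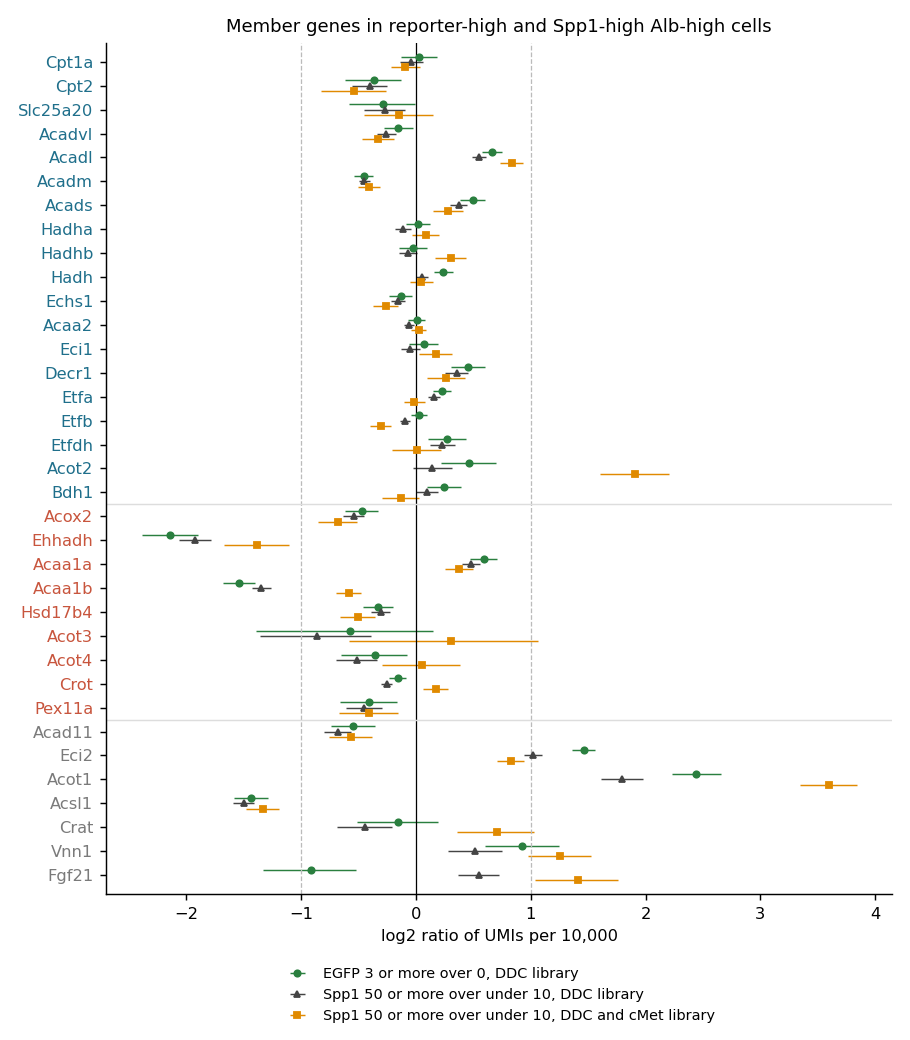
Log2 ratio of each member in EGFP-high over EGFP-zero cells of the DDC library and in Spp1-high over Spp1-low cells of both libraries, with bars for exact 95% counting intervals and dashed lines at 2-fold. Mitochondrial members other than Acot2 lie between the dashed lines in all 3 comparisons, while Ehhadh, Acaa1b, Acsl1, Eci2 and Acot1 lie outside them in the DDC library.

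Lobule zone was read from a coordinate of 9 pericentral and 8 periportal markers, none of them a member. Cells over 0.667 are called pericentral-side and those under 0.333 periportal-side: 476 and 646 Alb-high cells in the DDC library, 601 and 3014 in the DDC and cMet library. Genes held out of the coordinate checked it in part. Cyp2c37, Cyp2c50 and Cyp2a5, pericentral cytochromes, were higher on the pericentral side in both libraries (Cyp2c50 0.152 and 0.735 in the DDC library, 0.769 and 2.06 in the other). The periportal gluconeogenesis gene Pck1 was higher on the periportal side in both. The urea cycle genes Ass1 and Cps1 were higher on the periportal side in the DDC and cMet library but not in the DDC library, where Cps1 stood at 8.76 on the periportal and 10.3 on the pericentral side. In the DDC library these urea cycle genes thus ran against the coordinate. Asl, another urea cycle gene held out of the coordinate, is not reported here.

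The peroxisomal sum was higher on the pericentral side in both libraries. In the DDC library it was 9.27, 9.60 and 12.9 in periportal-side, middle and pericentral-side cells, a log2 ratio of 0.48 [0.45, 0.51], and in the DDC and cMet library 10.9, 11.3 and 12.7, a ratio of 0.22 [0.20, 0.24]. Without Ehhadh and Acaa1b the peroxisomal log2 ratios were 0.16 [0.13, 0.19] and 0.098 [0.071, 0.126]. The mitochondrial sum had log2 ratios of 0.05 [0.03, 0.06] and 0.10 [0.09, 0.11], so in the DDC and cMet library the other 7 peroxisomal members differed by zone about as much as the mitochondrial ones. The medians over all genes were -0.06 and 0.09. The biliary and progenitor marker median of the DDC library also went by zone, at 8.86, 6.31 and 2.53 in the same order, and its part in these ratios was not tested.

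In the DDC library 2 members were over 2-fold higher on the pericentral side, where 1.73% of all genes were, and none was over 2-fold lower, where 1.91% were. Acaa1b stood at 1.31, 1.57 and 3.27 from periportal-side to pericentral-side cells (log2 1.32 [1.26, 1.39]) and Ehhadh at 0.650, 0.794 and 1.49 (1.20 [1.10, 1.29]). With cells thinned to 2000 UMIs both fell just short of 2-fold (0.99 and 0.88), as did Ehhadh in cells without EGFP (0.99). Most of each gradient lay between middle and pericentral-side cells. Crat, the carnitine acetyltransferase gene, stood at 0.126 and 0.202 on the 2 sides (0.67 [0.44, 0.90]) and Acsl1 at 1.51 and 2.09 (0.47). The lowest ratios were those of Fgf21 (-0.24), Eci2 (-0.22), Acaa1a (-0.18) and Acadl (-0.13). Acaa1a thus again ran against Acaa1b, whose share of the pair was 55.1% on the periportal and 77.7% on the pericentral side.

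In the DDC and cMet library other members led. Acot1 stood at 0.0525, 0.0809 and 0.142 (log2 1.43 [1.20, 1.66], and 0.91 with a coordinate of abundant markers only) and Acot3 at 0.0278, 0.0436 and 0.0587 (1.08 [0.73, 1.42]), the 2 members over 2-fold higher on the pericentral side, where 2.41% of all genes were. Acot2 (0.77 [0.56, 0.98]) and Acot4 (0.44 [0.29, 0.58]), the rest of the chromosome 12 cluster, lay on the same side, and Crat stood at 0.134 and 0.208 (0.64). Acaa1b, at 3.02 and 4.20 (0.48 [0.44, 0.51]), and Ehhadh, at 0.807 and 0.947 (0.23 [0.15, 0.31]), had shallower gradients than in the DDC library, a difference that was not tested. The lowest ratios were those of Acad11 (-0.39), Acsl1 (-0.27), Cpt2 (-0.20) and Etfdh (-0.06), and no member was over 2-fold lower, where 1.44% of all genes were.

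**Figure D5:**
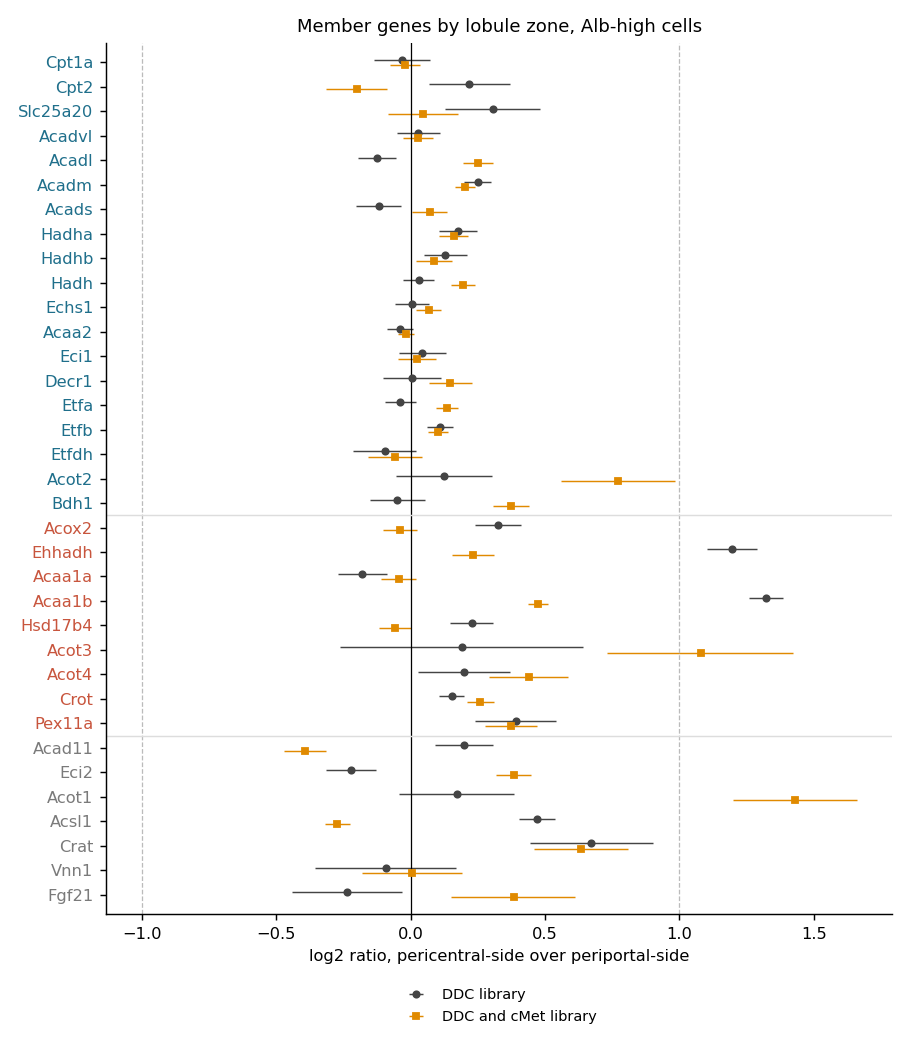
Log2 ratio of each member in pericentral-side over periportal-side Alb-high cells of each library, with bars for exact 95% counting intervals and dashed lines at 2-fold. Mitochondrial members all lie within 2-fold, the furthest from 0 being Acot2 (0.77 in the DDC and cMet library). Acaa1b (1.32) and Ehhadh (1.20) stand out in the DDC library, and Acot1 (1.43) and Acot3 (1.08) in the DDC and cMet library.

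Reporter and zone overlapped, so levels were also read in cells split by both, again with at least 10000 UMIs. Of cells with EGFP, 304 were periportal-side, 279 middle and 94 pericentral-side, against 247, 236 and 314 of those without. Ehhadh was lower in EGFP-positive cells of each zone: 0.832 without and 0.518 with EGFP on the periportal side, 1.01 and 0.651 in the middle, and 1.68 and 0.950 on the pericentral side. Acaa1b stood at 1.41 and 1.21 on the periportal side, 1.77 and 1.43 in the middle and 3.80 and 1.78 on the pericentral side. Its difference was therefore largest where its level was highest, and small on the periportal side. Eci2 was higher with EGFP in each zone, at 0.838 and 1.19, 0.830 and 1.17, and 0.739 and 1.35. The peroxisomal sum was 9.45 and 9.06, 10.3 and 9.10, and 13.9 and 10.2, while the mitochondrial sum was 27.9 and 29.7, 28.7 and 30.9, and 30.2 and 29.2.

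Outside Alb-high cells the members were lower but not absent. Macrophage-marker cells (463 and 1295) had mitochondrial sums of 11.9 in the DDC and 10.9 in the DDC and cMet library and peroxisomal sums of 2.79 and 2.26, and endothelial-marker cells (63 and 266) had mitochondrial sums of 10.5 and 9.57. Alb, which these cells should lack, stood at 11.5 and 21.0 in macrophage-marker cells against 257 and 414 in Alb-high cells, and serves as a measure of free hepatocyte RNA or doublets. Ehhadh (0.0948 and 0.0781 in macrophage-marker cells, against 0.920 and 0.836), Bdh1 (0.0898 and 0.0686, against 0.797 and 1.07) and Acox2 (0.105 and 0.0971, against 1.07 and 1.47) were also far lower there, though by less than Alb. Other members were not. Thinned to 10000 UMIs, 31.9% and 38.1% of macrophage-marker cells held an Acot1 UMI, against 12.1% and 5.19% of Alb-high cells. The levels of Acot1 (0.456 and 0.560, against 0.186 and 0.0710) and Crat (0.220 and 0.293, against 0.148 and 0.154) were higher in macrophage-marker than in Alb-high cells of both libraries. Cpt1a (0.786 and 0.955) and Hsd17b4 (0.945 and 0.834) were within 2-fold of Alb-high cells, at medians of 19710 and 13908 UMIs per macrophage-marker cell.

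Cells with biliary markers (120 and 46, picked by 5 markers without Sox9, Spp1 and Cd24a at a cut of 2 per 10000 set after seeing the data) overlapped Alb-high cells and still held Alb at 137 and 92.8. Their mitochondrial sums were 27.9 and 29.6 and their peroxisomal sums 8.08 and 6.71. Ehhadh stood at 0.375 and 0.142, Acot1 at 0.598 and 1.07 and Eci2 at 1.63 and 2.19, on the side of the Spp1-high cells in each case.

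Of the other genes of the pathway, 38 fixed by name, 30 had ratios below 0 in EGFP-high cells, where 32.1% of all genes did. Of the 38, 1 was over 2-fold higher, against 10.3% of all genes, and 7 over 2-fold lower, against 5.54%. Their median log2 ratio was -0.43. Oxct1, which encodes the ketone-consuming transferase that hepatocytes normally lack, stood at 0.117 without EGFP and 0.582 at 3 or more (2.31). Among the lower ones were Cyp4a14 (-5.16 [-7.44, -3.61], with 3 UMIs in EGFP-high cells) and Cyp4a10 (-4.26 [-5.71, -3.13], with 6), the omega-hydroxylases, Fabp1 (-2.55), the liver fatty acid binding protein gene, Acacb (-2.41), Slc27a5 (-1.74) and Pdk4 (-1.44). Ppara itself stood at 0.247 and 0.186 (-0.41). Between libraries 7 of the 38 were over 2-fold higher in the DDC and cMet library, against 5.86% of all genes, and 3 lower, against 12.5%, with Ppara (0.223 and 0.755, 1.76) the highest and Oxct1 (0.188 and 0.0305, -2.63) the lowest. By zone, Cyp4a14 had log2 ratios of 4.01 in the DDC library and -2.17 in the other. Of 16 citrate cycle and 14 respiratory chain genes set beside the members, 0 passed 2-fold in any of the 6 comparisons, and their sums in EGFP-high over EGFP-zero cells had log2 ratios of -0.03 and -0.05.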

How the data were processed

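The authors deposited UMI counts per gene and barcode for 2 libraries made with 10x Chromium v3 3′ chemistry. Gene and barcode lists are text with no unit (other), per the file headers. Cell Ranger appears as 5.0.1 in the matrix headers but as 6.0.1 in the submitters' processing notes, which also list mm10 and Seurat 4.0.1. No source used here says how barcodes were chosen. The DDC library held 104523363 UMIs and the DDC and cMet library 186997180. From these counts, levels were summed UMIs per 10000 and were compared as log2 ratios of genes with at least 50 UMIs, with exact 95% Poisson or Clopper-Pearson intervals. Tests were not possible with 1 sample per group. No doublet caller was run; 438 and 1821 cells with Alb at 50 or more were left out for other cells' markers. A UMI tag counts 1 molecule whatever the transcript length. Levels were not ranked between genes, but UMIs were set against each other for Acaa1a with Acaa1b, Hadha with Hadhb, and peroxisomal with mitochondrial members. tdTomato had 2 UMIs, in 2 cells, and was not used. Named with values are members with the 4 highest and 4 lowest ratios in a comparison, the Acaa1 and Acot groups and, for EGFP, every member. Some genes of the wider pathway list are not reported here by name. Members and lists were chosen with earlier results of these data known. The code for ratios and intervals was tested on simulated counts that held counting error only, with no variation between cells or mice. Promoters came from RefSeq (GRCm38.p6; 30 of 35 members matched) and gene positions from GENCODE M21. Intervals used scipy 1.17.1 and numpy 2.4.6, and figures matplotlib 3.10.9, under Python 3.11.15 with pandas 2.3.3.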

Additional observations from a re-analysis of the deposited data

Results flagged for a closer look

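A few members had ratios of opposite sign in the 2 libraries under one contrast, each with a counting interval that left out 0; with 1 sample per library the difference was not tested. Over lobule zones (pericentral over periportal side, DDC library first), the log2 ratios were 0.22 and -0.20 for Cpt2, -0.13 and 0.25 for Acadl, -0.12 and 0.071 for Acads, 0.20 and -0.39 for Acad11, -0.22 and 0.38 for Eci2, 0.47 and -0.27 for Acsl1, and -0.24 and 0.38 for Fgf21. Acsl1 had the widest gap, and its lowest level was in the middle zone of both libraries. Over Spp1 (50 or more against under 10), they were -0.25 and 0.17 for Crot and -0.44 and 0.70 for Crat.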

How the results depend on the processing

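Each library is 1 sample, so the alternatives below show how the log2 ratios move with the choice of cells and denominators, not how they vary between mice. No paired analysis was possible because each group is 1 sample and no result comes from a test. The peroxisomal ratio stayed below 0 for EGFP and above 0 for both zonations under all alternatives run, and the mitochondrial ratio stayed above 0 in all 4 comparisons. Stricter cell limits and EGFP cells of at least 20000 UMIs moved none of these sums beyond its counting interval. A minimum of 20 UMIs per gene says nothing here, since all members had at least 50. Mitochondrial values are given first, then peroxisomal ones.

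Between libraries the mitochondrial log2 ratio (0.26) was 0.324 without mitochondrially encoded UMIs, 0.323 as a mean over cells, 0.335 with cells thinned to 2000 UMIs and 0.276 with Alb at 20. With cells chosen after seeing the data, it was 0.292 for DDC cells without EGFP, 0.252 for Spp1 under 10, and 0.277, 0.248 and 0.332 for periportal-side, middle and pericentral-side cells. The peroxisomal ratio (0.12) was 0.180, 0.0554, 0.0823 and 0.148 in the order of the first 4, 0.0828 with Alb at 100, 0.161 with Eci2, Acad11 and Crat counted as peroxisomal and 0.0872 without the highest 5% of UMIs. It reversed to -0.0344 without EGFP, -0.0212 with Spp1 under 10 and -0.0254 on the pericentral side, and was 0.232 and 0.239 in the other zones. The cause was not tested.

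Without Ehhadh and Acaa1b, left out after seeing the data, the peroxisomal ratio was -0.0677 between libraries (reversed), -0.133 for EGFP, 0.160 for zonation in the DDC library and 0.0984 in the DDC and cMet library.

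For EGFP the mitochondrial ratio (0.08) was 0.0441 without mitochondrially encoded UMIs, 0.113 as a mean over cells, 0.0123 with Alb at 20, 0.110 with Alb at 100, 0.00773 without an Alb cut, 0.122 without the highest 5% of UMIs and 0.0263 within EGFP-positive cells. The peroxisomal ratio (-0.48) was -0.534 as a mean over cells, -0.630 thinned, -0.532 with Alb at 20, -0.422 with Alb at 100, -0.537 without an Alb cut, -0.251 with the 3 added genes, -0.370 for EGFP 1 or more against 0 and -0.199 within EGFP-positive cells.

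For zonation in the DDC library the mitochondrial ratio (0.05) was 0.122 thinned, 0.111 in cells without EGFP, 0.0107 without the highest 5% of UMIs and 0.0636 with abundant markers. The peroxisomal ratio (0.48) was 0.413 as a mean over cells, 0.510 with Alb at 100, 0.413 with the 3 added genes, 0.415 with zones cut by rank, 0.539 in cells without EGFP, 0.431 without the highest 5% of UMIs and 0.553 with abundant markers. In the DDC and cMet library the mitochondrial ratio (0.10) was 0.0833 without mitochondrially encoded UMIs, 0.0662 as a mean over cells, 0.0708 by rank, 0.121 with abundant markers and 0.114 with Spp1 under 10. The peroxisomal ratio (0.22) was 0.250 as a mean over cells, 0.253 thinned, 0.195 with the 3 added genes, 0.153 by rank and 0.317 with abundant markers. For Spp1 in the DDC library the mitochondrial ratio of -0.02 reversed to 0.00559 with Alb at 100 and 0.000378 without the highest 5% of UMIs. Depth limits members with few UMIs, such as Acot3, Acot1, Acot2, Vnn1, Crat and Fgf21.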
